A study of Homo sapiens with 54 samples.

Results

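The genes described here are the very long protein-coding genes of chromosomes 1 to 22, those with an annotated span over 500000 bases, leaving out gene symbols that begin with GABR, GRIN, GRIA, PDE, FOXP, EBF, COL, TGFBR or LAMA (9 genes). They were 295 of the 60676 genes in each deposited table and 1.55% of the 19027 autosomal protein-coding genes (GRCh38, Ensembl). Their median length was 730855 bases, 63 were over 1 Mb and 6 over 2 Mb, and the longest was RBFOX1 at 2473539 bases. SPOCK3 (501413 bases) lay just inside the length limit and DIAPH3 (498346 bases) just outside it. A median of 98.8% of a gene's length was intron, and together the 295 genes held 20.1% of the intron length of the autosomal protein-coding genes.

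Total RNA had been sequenced from medium spiny neuron-like cells (hMSNs) differentiated from H9 (WA09), an established human embryonic stem cell line. Medium spiny neurons are the main neurons of the striatum and carry dopamine receptors. In the first experiment, cultures received 1 mM dopamine once for an hour (Acute) or daily over 5 days (Chronic), and RNA was taken 1 h or 24 h after the dose, against a 1 mM PBS group. The second experiment repeated these groups at 1 uM, against a 1 uM PBS group. In the third, 1 mM dopamine was given daily for 2, 3, 4 or 5 days (2 Day to 5 Day) with RNA taken 1 h after the last dose, against an AA control that received ascorbic acid, the vehicle of the dopamine. In the fourth, cultures received 50 µM SKF82958, an agonist of D1-like receptors, or 50 µM quinpirole, an agonist of D2-like receptors, against Water. Each of the 18 groups had 3 libraries, apart from 5 Day and Quinpirole with 2 each. Quinpirole replicate 1, in which 96.7% of gene reads were intron reads, was left out, and 5 Day replicate 1 was not analysed here. Every library came from 1 cell line, and the sources used here do not state whether replicates were separate differentiations, so p-values measure the spread between these samples, which may be technical. Acute cultures were dosed on an earlier day in culture than chronic ones and the day of the PBS cultures is not given in the sources used here, so the part of culture age in the 1 mM and 1 uM comparisons was not tested. Nor do these sources say that the PBS cultures received ascorbic acid. The part of that vehicle in the 1 mM and 1 uM comparisons was therefore not tested.

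Genes of this length are common among those that neurons use for synaptic adhesion, axon guidance, ion channel complexes and synaptic scaffolds. RNA polymerase II needs hours to cross such a gene, so long genes depend on elongation factors and topoisomerases, and several of them lie at common fragile sites. Exon reads come mostly from spliced mRNA, whereas intron reads come from unspliced or nascent RNA and from any genomic DNA that remains in an RNA preparation.

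The 52 libraries held 7548913 to 33715972 gene reads. The neuron markers (6 of 6 detected at 0.5 TPM or more in every group) summed to 1829 to 4211 TPM, the authors' deposited unit of exon reads scaled for exon length and library size, and the medium spiny neuron markers (7 of 7) to 50.76 to 178.9 TPM. Progenitor markers were also high, at 1352 to 4456 TPM, and in bulk RNA fewer cells of a type and less RNA per cell cannot be told apart. One library stood apart, 1 mM Acute 24 h replicate 1, with the lowest neuron marker sum of the 52, and its effect on the counts is given below. Genes with almost no exon signal gave each library a floor of intron reads, taken as the median intron read density (intron reads per Mb of intron per 1000000 exon reads) of 155 other protein-coding genes with a mean below 0.1 TPM and at least 100 kb of intron. This floor ranged widely between libraries, and 3 libraries of the 1 uM experiment (Acute 1 h replicates 1 and 2 and Chronic 1 h replicate 2) had floors of 28.2, 70.9 and 48.5 beside 1.74 to 6.40 in their PBS group.

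Most of the very long genes were expressed. By mean exon TPM over the 52 libraries, 267 of 295 reached 1 TPM and 157 reached 10 TPM, the median was 11 TPM, and 5 were below 0.1 TPM, CNBD1, BANK1, IQCM and AC106741.2 among them. Receptor-type tyrosine phosphatases had the highest median of the 13 role lists (40.4 TPM, 6 genes), led by PTPRD (95.5 TPM), a presynaptic adhesion receptor, PTPRN2 (55.6 TPM), PTPRG (40.6 TPM) and PTPRM (40.2 TPM). Axon guidance genes followed with a median of 31.5 TPM over 11 genes, led by the Slit receptor ROBO1 (69.4 TPM) and the netrin receptor DCC (60.6 TPM), with ROBO2 at 39.9 TPM and SEMA6D at 35.9 TPM. IgLON and other immunoglobulin adhesion genes had a median of 23.5 TPM over 10 genes, with OPCML at 66.8 TPM and LSAMP at 53.0 TPM. The ion channel list had the lowest median of the role lists (7.80 TPM, 20 genes), led by DPP6 (32.6 TPM), an auxiliary subunit of A-type potassium channels, and GRM8 (30.6 TPM), a metabotropic glutamate receptor.

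The single highest level was that of CNTNAP2, a neurexin-family adhesion protein of axons, at 203 TPM (160 to 268 TPM over the libraries). SYT1, the calcium sensor of synaptic vesicle release, followed at 170 TPM (94.5 to 260 TPM). RELN, a secreted protein of neuronal migration that is on no role list, had 139 TPM and the delta-catenin gene CTNND2 137 TPM. Their ranges over libraries overlapped. The RNA-binding protein list held 4 genes with CELF2, a splicing regulator, at 127 TPM, KHDRBS2 at 27.8 TPM, RBFOX1 at 13.8 TPM and RBMS3 at 2.12 TPM. Among transcription and chromatin genes (16 genes, median 12.4 TPM), NFIA had 65.2 TPM, AUTS2 59.8 TPM, ZFPM2 50.4 TPM and CAMTA1 42.3 TPM. Teneurins and latrophilins, which pair across synapses, reached 60.9 TPM (TENM4), 46.7 TPM (TENM3) and 42.4 TPM (ADGRL2). The proteoglycan gene SPOCK1 had 80.0 TPM, the sorting receptor SORCS2 90.7 TPM, the exocyst subunit EXOC4 56.0 TPM, the polarity gene PARD3 51.6 TPM and the neuregulin NRG3 28.8 TPM. Genes on no role list (129) had a median of 8.53 TPM.

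Of the genes that rose in both 1 mM experiments, 4 are shown by the sequence before a transcription start. These members moved together in experiments with separate controls. The promoters are 250 bases upstream of 1 RefSeq start per gene, on the gene's strand (GRCh38.p14), 5′ to 3′. The half-site of the cAMP response element (TGACG on either strand) is in capitals. RUNX1 lies at chr21:34888700-34888949 (minus strand), ALDH1A2 at chr15:58065712-58065961 (minus), ALK at chr2:29921587-29921836 (minus) and GLIS3 at chr9:4298497-4298746 (minus).
RUNX1: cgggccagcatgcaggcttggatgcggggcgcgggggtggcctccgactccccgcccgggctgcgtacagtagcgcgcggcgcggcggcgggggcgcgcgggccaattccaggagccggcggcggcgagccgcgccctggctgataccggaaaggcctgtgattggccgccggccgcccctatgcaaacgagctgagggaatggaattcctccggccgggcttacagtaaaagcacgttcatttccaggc
ALDH1A2: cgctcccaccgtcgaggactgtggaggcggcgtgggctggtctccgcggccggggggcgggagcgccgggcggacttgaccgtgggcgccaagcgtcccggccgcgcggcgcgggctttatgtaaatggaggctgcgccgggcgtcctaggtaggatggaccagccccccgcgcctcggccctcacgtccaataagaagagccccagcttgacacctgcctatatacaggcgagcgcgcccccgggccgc
ALK: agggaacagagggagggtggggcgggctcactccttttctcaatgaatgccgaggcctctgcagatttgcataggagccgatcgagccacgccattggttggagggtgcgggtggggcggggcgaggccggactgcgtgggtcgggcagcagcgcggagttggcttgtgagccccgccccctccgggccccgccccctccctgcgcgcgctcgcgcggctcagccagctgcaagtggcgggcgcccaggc
GLIS3: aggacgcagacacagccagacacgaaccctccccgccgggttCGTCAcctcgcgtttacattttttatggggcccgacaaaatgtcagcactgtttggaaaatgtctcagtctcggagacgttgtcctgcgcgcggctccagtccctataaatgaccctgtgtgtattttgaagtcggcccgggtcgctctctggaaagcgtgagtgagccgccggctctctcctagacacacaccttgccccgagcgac
Of these 4 promoters, GLIS3 held 1 half-site, 208 bases before the start, and the other sequences held none. Among other genes that rose in both experiments, CDH4 held 1, 177 bases before the start used. GALNT17, TENM3 and TMEM132D held none, and these sequences are not shown. TGACG on either strand was found in 24.0% of the 25 members with a promoter entry that rose 1 h after 1 mM acute dopamine, in 20.7% of the 29 that fell, in 15.6% of all 237 members with an entry and in 21% of 33725 promoters. The full element TGACGTCA, which contains the half-site, was in 1.27% of member promoters and 1.66% of all promoters, and the AP-1 site TGANTCA in 2.53% and 6.54%. The median GC content was 63.6% in member promoters and 58.4% in all. The RefSeq start used for ALK was the deposited start, whereas those used for RUNX1, ALDH1A2 and GLIS3 lay 1115968, 432155 and 49896 bases inside the deposited gene. Only 1 start was taken per gene, and it need not be the outermost. For GLIS3 the RefSeq span (666339 bases) was longer than the deposited gene (524266 bases). In RefSeq, 267 of 289 matched members (92.4%) also spanned over 500 kb, and 3 spanned under 200 kb (RASGEF1B, ALDH1A2 and EGLN3), so the annotated length of RUNX1 (1216867 bases deposited, 261502 in RefSeq) depends on the annotation.

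Acute dopamine at 1 mM changed the exon reads of about as many very long genes upward as downward. After 1 h, 27 of 284 tested rose and 36 fell (22.2%), beside 16.0% of all 17804 genes tested, and after 24 h 29 rose and 32 fell (21.5%), beside 15.5% of all (edgeR quasi-likelihood test, adjusted p under 0.05). The median log2 fold change of the members was -0.03 at 1 h and 0.12 at 24 h, beside 0.01 and 0.02 over all genes tested, and 7 and 8 of the called members changed at least 2-fold at a level of 1 TPM or more. The share of all genes with changes of that size is not given here. These counts depend on 1 mM Acute 24 h replicate 1, since the 5 groups of the experiment share 1 estimate of spread. Without it 53 rose and 75 fell at 1 h and 35 rose and 72 fell at 24 h, and with only the groups compared in the fit 60 rose and 79 fell at 1 h and none was called at 24 h. Such refits change the spread used for every gene, and the share of all genes called in them is not given here. The neuron markers summed to 3660 to 4211 TPM in PBS, 3343 to 3664 TPM at 1 h and 1829 to 3384 TPM at 24 h, and the medium spiny neuron markers to 94.84 to 111, 83.04 to 89.27 and 90.03 to 139.2 TPM, and their part in these changes was not tested.

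RUNX1, a transcription factor, rose most. Its level was 0.694, 0.655 and 0.672 TPM in 1 mM PBS, 2.13, 2.42 and 2.55 TPM 1 h after the acute dose, and 3.06, 2.93 and 1.66 TPM after 24 h. All 6 acute libraries lay above all 3 PBS libraries (log2 fold change 1.88 ± 0.27 SE, edgeR adjusted p = 0.000988 at 1 h, and 1.79, adjusted p = 0.00236 at 24 h). MECOM, another transcription factor, went from 1.91, 2.34 and 3.50 TPM to 5.21, 6.07 and 7.06 TPM at 1 h (1.30 ± 0.34, edgeR adjusted p = 0.0206). TMEM132D, a neuronal membrane protein, went from 14.5, 12.1 and 15.1 TPM to 27.6, 27.1 and 29.1 TPM (1.07 ± 0.19, edgeR adjusted p = 0.00301). In each case the groups did not overlap.

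The receptor tyrosine kinase gene ALK had 7.07, 5.86 and 7.33 TPM in PBS and 26.1, 12.4 and 11.4 TPM at 24 h, all above PBS, with replicate 1 far above the others of its group. The change was 1.14 ± 0.24 (edgeR adjusted p = 0.0123) and 0.77 (adjusted p = 0.00531) without that library. ALDH1A2, which makes retinoic acid, had 0.843, 0.568 and 0.829 TPM in PBS and 3.18, 1.25 and 1.39 TPM at 24 h (1.20 ± 0.33, edgeR adjusted p = 0.0321), and without replicate 1 it no longer passed (0.77, adjusted p = 0.0655). The zinc finger gene GLIS3 had 9.96, 8.78 and 10.3 TPM in PBS, 15.0, 15.5 and 15.7 TPM at 1 h and 25.0, 19.1 and 13.9 TPM at 24 h, so again no acute library overlapped PBS.

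Among genes that fell, MGAT4C, a glycosyltransferase, went from 4.36, 3.65 and 3.44 TPM in PBS to 1.16, 1.57 and 1.23 TPM at 1 h (-1.47 ± 0.30, edgeR adjusted p = 0.00621). The potassium channel gene KCNQ5 went from 2.40, 2.89 and 2.77 TPM to 0.704, 1.16 and 1.01 TPM (-1.43 ± 0.33, edgeR adjusted p = 0.0126), and SGCZ, a sarcoglycan, from 1.47, 1.46 and 1.26 TPM to 0.518, 0.822 and 0.576 TPM (-1.06 ± 0.30, edgeR adjusted p = 0.0269). All 3 were separated from PBS at 1 h. At 24 h, MGAT4C (4.44 TPM), KCNQ5 (2.75 TPM) and SGCZ (1.42 TPM) were near PBS in replicate 1 and lower in the other libraries of that group. The glycosyltransferase GALNTL6 was lower at both times, at 3.53 to 3.84 TPM at 1 h and 3.31 to 3.88 TPM at 24 h against 6.78 to 7.34 TPM in PBS (-1.10 ± 0.13, edgeR adjusted p = 0.000958 at 24 h). SLC4A4, a bicarbonate transporter, had 0.956, 2.41 and 2.29 TPM at 24 h against 4.45, 4.18 and 3.47 TPM (-1.16 ± 0.28, edgeR adjusted p = 0.0191), and the fragile-site gene FHIT 1.44, 1.39 and 1.81 TPM against 2.54, 2.89 and 2.74 TPM (-0.92 ± 0.25, edgeR adjusted p = 0.0303).

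**Figure D1:**
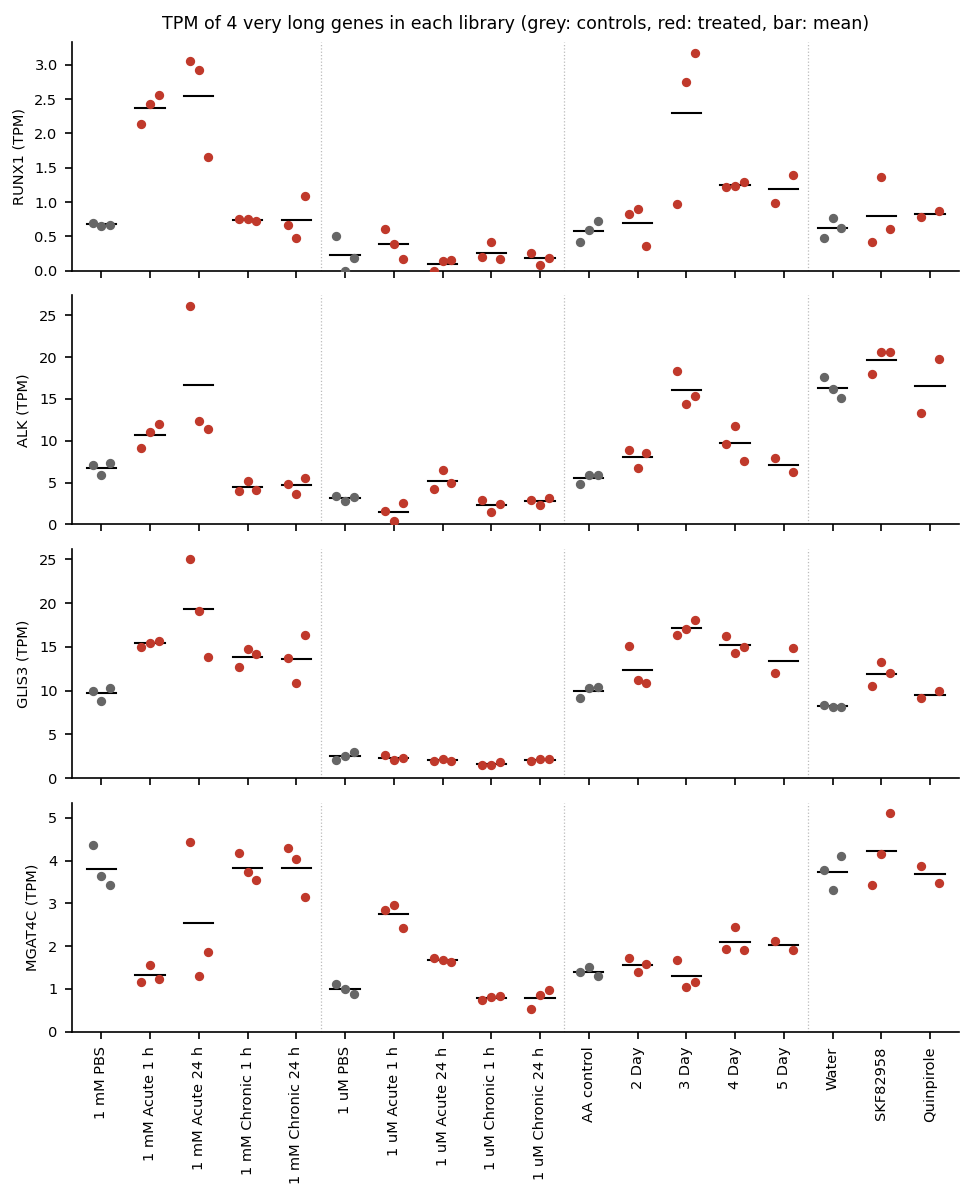
Exon level in TPM (vertical axes) of RUNX1, ALK, GLIS3 and MGAT4C in each library of the 18 groups (horizontal axis, grey controls, red treated, bar at the group mean). RUNX1 and GLIS3 are above their controls 1 h after acute 1 mM dopamine and at 3 Day, ALK at 1 mM Acute 24 h and at 3 Day, and MGAT4C is lower 1 h after acute 1 mM dopamine and higher 1 h after acute 1 uM dopamine.

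By role, these calls 1 h after the 1 mM acute dose stand beside 8.04% of all genes that rose and 7.94% that fell, and no list was tested against other genes. The synaptic scaffold list had 7 of 24 down (ANK2, ANKS1B, DLG2, DLGAP2, PPFIA2, SHANK2 and SYT1) and SORCS2 up. The fall of SYT1 was from 212, 204 and 236 TPM to 151, 159 and 153 TPM. The neurexin and contactin list had 4 of 15 up (ADGRL3, CNTNAP2, TENM3 and TENM4) and 2 down, NLGN1 among them. CNTNAP2 went from 170, 160 and 181 TPM to 255, 261 and 268 TPM (0.68 ± 0.15, edgeR adjusted p = 0.00910), and TENM3 from 33.1, 31.3 and 38.9 TPM to 59.5, 57.3 and 60.3 TPM (0.84 ± 0.11, edgeR adjusted p = 0.000337). Of the channel list 3 of 20 rose (DPP10, GRM8 and TRPM3) and 3 fell (CACNA2D3, GRIK2 and KCNQ5). The fragile-site list had 4 of 19 down (CSMD1, CSMD2, EXOC4 and SGCZ) and none up, the receptor phosphatases 2 of 6 down (PTPRD and PTPRM), and the RNA-binding list none of 4 in either direction. PTPRD went from 124, 124 and 127 TPM to 90, 95.6 and 88.2 TPM. At 24 h, where 8.38% of all genes rose and 7.09% fell and where no member was called with only the groups compared in the fit, 4 of 15 neurexin and contactin genes rose (ADGRL2, ADGRL3, TENM3 and TENM4), 3 of 6 receptor phosphatases fell (PTPRD, PTPRK and PTPRM), and RBFOX1 and CELF2 of the RNA-binding list fell.

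Chronic dosing at 1 mM left few called members. CDH13, a cadherin without a cytoplasmic tail, fell at Chronic 1 h from 21.4, 18.0 and 21 TPM to 15.8, 12.6 and 13.7 TPM (-0.56 ± 0.11, edgeR adjusted p = 0.0178), 1 of 284 members (0.352%) beside 2.08% of all genes. EGLN3, an oxygen-sensing prolyl hydroxylase, fell at Chronic 24 h from 18.1, 13 and 12.2 TPM to 8.22, 5.46 and 6.90 TPM (-1.10 ± 0.22, edgeR adjusted p = 0.0380), again 1 of 284 beside 0.663% of all genes. Without 1 mM Acute 24 h replicate 1, 47 members were called at Chronic 1 h (13 rose and 34 fell) and 26 at Chronic 24 h (7 rose and 19 fell). That refit also changes the calls of other genes, whose share is not given here.

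In the time course, more very long genes rose than fell. At 2 Day 11 of 282 rose and 7 fell (6.38%, beside 3.88% of all genes), at 3 Day 23 rose and 7 fell (10.6%, beside 7.37%), at 4 Day 23 rose and 4 fell (9.57%, beside 4.38%) and at 5 Day 12 rose and none fell (4.26%, beside 1.63%). The 4 groups share their AA control, and fitted with that control alone no member was called at 5 Day. The 1 mM Chronic 1 h group had the same dosing as 5 Day, with a PBS control, and did not repeat this direction. There 0 members rose and 1 fell, with a median log2 fold change of -0.08 beside 0.15 at 5 Day. Of all genes tested, 4.77% rose and 2.60% fell at 3 Day, and 1.23% rose and 0.406% fell at 5 Day. The mesenchyme markers (5 of 5 detected at 0.5 TPM or more) summed to 166.9 to 223.4 TPM in the AA control and to 213.6 to 323.1, 254.7 to 443.5, 320.5 to 351.3 and 250.8 to 405.1 TPM at 2 Day, 3 Day, 4 Day and 5 Day. The medium spiny neuron markers summed to 111 to 119 TPM in the AA control and, in the same order, to 65.61 to 92.18, 93.52 to 104.7, 79.9 to 103.9 and 80.55 to 88.27 TPM, and the part of both lists in these changes was not tested.

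Within the time course ALK was highest at 3 Day, with 18.4, 14.4 and 15.3 TPM against 4.87, 5.91 and 5.96 TPM in the AA control (1.62 ± 0.18, edgeR adjusted p = 0.00011). ALDH1A2 had 0.304, 0.479 and 0.566 TPM in the AA control, 1.78, 1.65 and 1.39 TPM at 3 Day (1.93 ± 0.29, edgeR adjusted p = 0.00118) and 1.19, 1.07 and 1.35 TPM at 4 Day. Both were above the control in every library of these groups. RUNX1 had 0.423, 0.589 and 0.720 TPM in the AA control and 0.968, 2.75 and 3.18 TPM at 3 Day (2.09 ± 0.39, edgeR adjusted p = 0.00481), without overlap but with a wide spread. GLIS3 rose at each of the 4 times, from 9.10, 10.3 and 10.4 TPM in the control to 16.3, 17.1 and 18.1 TPM at 3 Day (0.89 ± 0.11, edgeR adjusted p = 0.00019), and CDH4, a cadherin, also rose at each time, by 0.35 to 0.40 on the log2 scale. Counting the 1 mM acute groups, GLIS3 and CDH4 rose in 6 comparisons each, the most of any member. The inward rectifier KCNJ6 fell at 2 Day from 7.53, 8.18 and 8.92 TPM to 3.69, 2.67 and 3.02 TPM (-1.28 ± 0.24, edgeR adjusted p = 0.00917) and at 4 Day to 3.73, 5.15 and 3.19 TPM, whereas at 3 Day it had 8.76, 7.68 and 6.42 TPM. SOX5, a transcription factor of neuronal specification, fell in 5 comparisons, for example from 42.0, 41.9 and 37.2 TPM to 31.0, 24.6 and 27.4 TPM at 3 Day. At 5 Day the largest rises were in DLC1 (0.78), ERBB4 (0.63) and LINGO2 (0.62).

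The acute groups of the 1 mM dose experiment and the time course have separate controls and share called members. Of the 27 members that rose at 1 mM Acute 1 h and the 23 that rose at 3 Day, 12 were the same (44.4% and 52.2% of the lists), namely CDH4, CNTNAP2, CPNE4, DOCK1, GALNT17, GLIS3, KIF26B, RUNX1, SLIT3, SORCS2, TENM3 and TMEM132D. Of all genes, 304 rose in both, 21.7% and 38.3% of the lists. The 29 that rose at 1 mM Acute 24 h shared 10 with 3 Day (34.5% and 43.5%), including ALDH1A2, ALK and PARD3, beside 229 of all genes (15.5% and 28.8%). RUNX1, CDH4, GALNT17, GLIS3, KIF26B, TENM3 and TMEM132D are in both shared sets.

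At 1 uM the called members moved down more often than up. After an acute dose, 5 of 276 rose and 16 fell at 1 h (7.61%, beside 5.77% of all genes) and 5 rose and 10 fell at 24 h (5.43%, beside 3.31%). At Chronic 1 h none rose and 6 fell (2.17%, beside 2.58%), with LPP (-0.81), ADGRV1 (-0.71) and EXOC6B (-0.64) the largest. At Chronic 24 h no member was called, beside 0.00% of all genes, with 1 member higher and 16 lower at an unadjusted p under 0.05 and none called by DESeq2. Here and below, counts at an unadjusted p are given without the share of all genes at that threshold. GALNTL6 fell in both acute groups, from 8.25, 5.29 and 5.84 TPM in 1 uM PBS to 0.551, 1.00 and 2.26 TPM at Acute 1 h (-2.31 ± 0.33, edgeR adjusted p = 0.000904) and 3.03, 2.17 and 3.17 TPM at Acute 24 h. CNTN5, a contactin, had 1.59, 2.23 and 0.973 TPM in PBS and 0.280, 0.133 and 0.499 TPM at Acute 1 h (-2.50 ± 0.59, edgeR adjusted p = 0.0233). CDH13 had 12.3, 4.35 and 13.7 TPM in PBS and 3.46, 1.75 and 2.02 TPM (-2.0 ± 0.30, edgeR adjusted p = 0.00137). In both the groups were apart although the PBS libraries spread widely. Fitted with only PBS and the group compared, 1 member was called at Acute 1 h, 9 at Acute 24 h and none at Chronic 1 h.

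MGAT4C rose at 1 uM Acute 1 h, from 1.12, 1.01 and 0.885 TPM to 2.84, 2.97 and 2.42 TPM (1.47 ± 0.28, edgeR adjusted p = 0.00632), and THSD4, a thrombospondin-repeat gene, from 1.79, 1.32 and 2.24 TPM to 6.07, 3.33 and 5.28 TPM (1.46 ± 0.25, edgeR adjusted p = 0.00312). The ephrin receptor EPHA6 fell at Acute 24 h from 8.46, 7.94 and 9.03 TPM to 3.35, 1.42 and 3.25 TPM (-1.72 ± 0.34, edgeR adjusted p = 0.0136). The lists of 1 mM and 1 uM Acute 1 h shared 1 gene that rose (ZFHX3) and 4 that fell (CLSTN2, EXOC4, GALNTL6 and PRKCE). The sharing of all genes between these 2 groups was not computed. Leaving out the 3 libraries with a high floor, 1 member rose and 17 fell at Acute 1 h, and none rose and 25 fell at Chronic 1 h. This leaves Acute 1 h with 1 library, replicate 3, whose spread is taken from the other groups.

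The receptor agonists changed no member's exon reads. With SKF82958 20 of 280 members were higher and 4 lower at an unadjusted p under 0.05, 1 was called by DESeq2, and 0.624% of all genes were called. With quinpirole 12 were higher and 8 lower, none was called by DESeq2, and 0.184% of all genes were called. Over the 14 comparisons with a control, 136 members were called by exon reads at least once. The other 159 include members that the filter on low counts left untested, and the share of all genes called at least once was not computed.

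**Figure D2:**
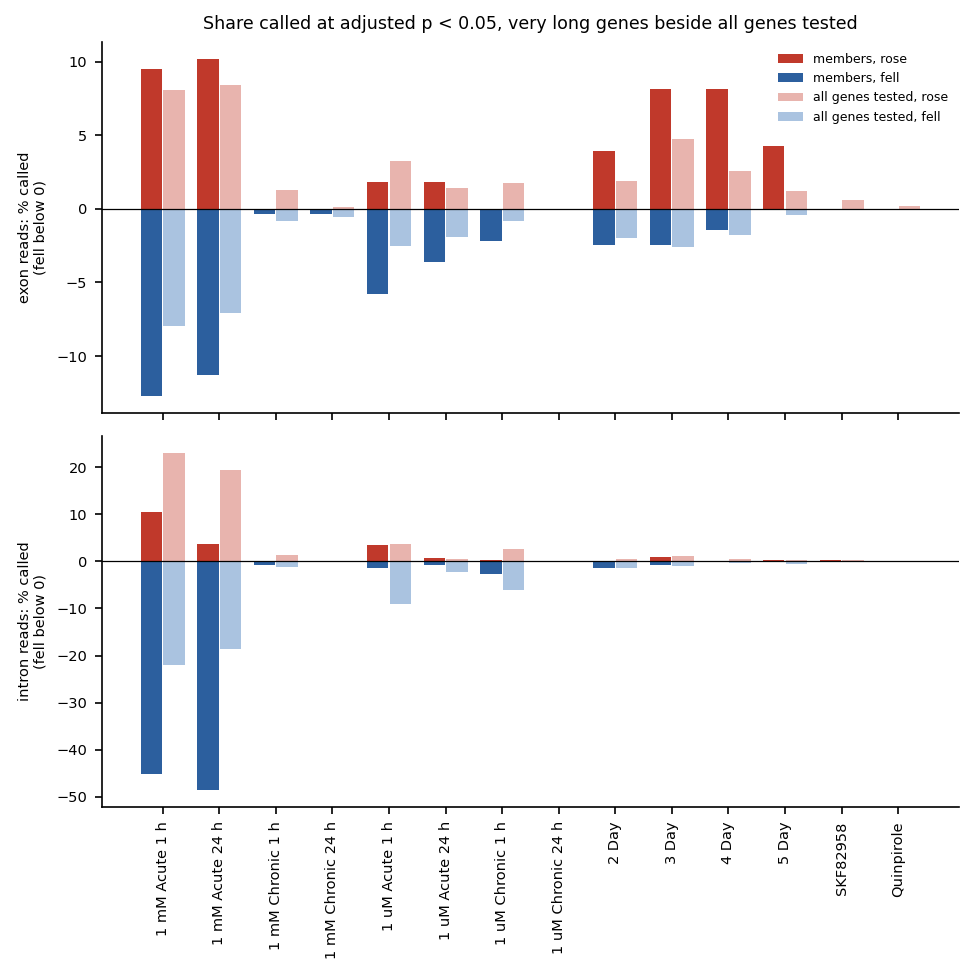
Share of very long genes that rose (bars upward) and fell (bars downward) in each comparison (horizontal axis), in percent at adjusted p under 0.05. In each pair of bars the left shows the members and the right all genes tested. The upper panel is for exon reads and the lower for intron reads. After acute 1 mM dopamine 22.2% and 21.5% of members were called by exon reads and 55.6% and 52.2% by intron reads, where most fell.

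Intron reads of the very long genes fell, relative to those of other genes, after acute 1 mM dopamine. At 1 h 31 of 295 rose and 133 fell (55.6%, beside 45.2% of all 23718 genes tested) and at 24 h 11 rose and 143 fell (52.2%, beside 38.0%). The median log2 fold change was -0.32 and -0.34, beside 0.03 and 0.08 over all genes, and it changed with length. At 1 h it was -0.18 for protein-coding genes of 200 to 500 kb, -0.02 for those of 50 to 200 kb and 0.30 for those under 50 kb. These values are scaled to the intron reads of other genes. Scaled by exon reads instead, the median over all genes moved to -1.07 at 1 h and -0.86 at 24 h and that of the members to -1.41 and -1.28, with 1 member up and 283 down at 1 h and none up and 290 down at 24 h.

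The floor of intron reads moved with this result. In 1 mM PBS it was 34.5, 42.4 and 32.5 intron reads per Mb of intron per 1000000 exon reads, where the members together had 64.4, 69.2 and 62.3. At 1 mM Acute 1 h the floor was 1.88, 4.66 and 9.10 and the members had 22.6, 31.5 and 33.0, and at Acute 24 h the floor was 6.87, 5.20 and 14. The chronic libraries had floors of 32.4 to 42.4. The member intron to exon ratio was 0.917, 1.04 and 0.859 in PBS, 0.337, 0.453 and 0.484 at Acute 1 h and 0.301, 0.399 and 0.574 at Acute 24 h. With the floor subtracted it was 0.426, 0.404 and 0.410 in PBS, 0.309, 0.386 and 0.350 at Acute 1 h and 0.223, 0.323 and 0.367 at Acute 24 h, so the acute libraries stayed below PBS by a smaller margin. The floor was also subtracted per gene, with no count allowed to turn negative, and the result scaled to the remaining intron reads of other genes. On that scale, unlike the ratio to exon reads above, the direction of the calls at 1 h turned, with 85 of 288 members up and 27 down. The median was 0.29 there, beside -0.02 over all genes. At 24 h 32 were up and 34 down, with a median of 0.09 beside 0.03. How many of all genes were called with the floor subtracted is not given here. The part of the floor in the fall of intron reads was not tested beyond this subtraction. A floor of that density over the exons would give at most 0.847% of the members' exon reads in any 1 mM PBS library.

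**Figure D3:**
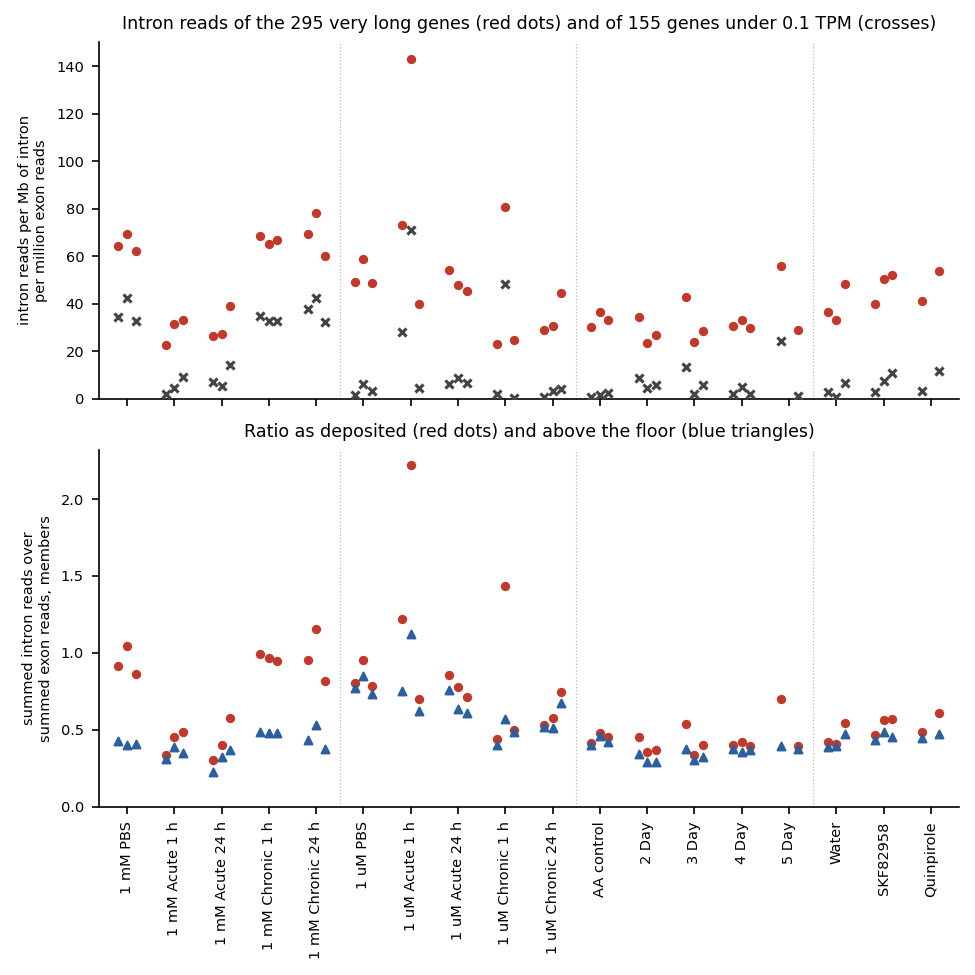
Upper panel, intron reads per Mb of intron per 1000000 exon reads of the 295 very long genes (red dots) and of the 155 genes that set the floor (crosses) in each library. Lower panel, the members' intron to exon ratio as deposited (red dots) and above the floor (blue triangles). Members and floor are both high in 1 mM PBS and chronic libraries and low in acute ones, and above the floor the ratio of 1 mM PBS is 0.404 to 0.426 beside 0.223 to 0.386 in the acute groups.

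Single members show both situations. RUNX1, whose exon level rose, had an intron density of 35.5, 39.0 and 32.6 in 1 mM PBS, close to the floor, and of 6.52, 10.5 and 14.4 at Acute 1 h, above the floors of 1.88, 4.66 and 9.10. Its intron to exon ratio went from 16.8, 19.3 and 15.7 to 0.977, 1.38 and 1.79 (-2.80 ± 0.33, edgeR adjusted p = 3.58e-05), and with the floor subtracted the change turned to 3.00. That value rests on few PBS reads, since the PBS floors were 34.5, 42.4 and 32.5 and no subtracted count was allowed to turn negative. SPOCK3, a proteoglycan (36.5, 41.4 and 30.6 to 1.36, 3.38 and 7.29), CNBD1 (31.1, 38.1 and 31.2 to 0.820, 3.03 and 8.07) and IQCM (34.6, 44.2 and 33.3 to 1.47, 4.71 and 8.71) had the largest called falls of intron reads at 1 h (-2.08, -2.0 and -1.83), and all 3 lay at the floor in both groups. SUMF1, which activates sulfatases, was far above the floor, at 138, 122 and 135 in PBS and 153, 174 and 173 at Acute 1 h (1.47 ± 0.15, edgeR adjusted p = 1.13e-05 for intron reads). The ion channel TRPM3 had 364, 390 and 222 in PBS and 430, 420 and 485 at Acute 1 h (1.61 ± 0.20, edgeR adjusted p = 4.96e-05). NFIA rose by 1.18 relative to other genes' introns, although its density was 168, 153 and 169 in PBS and 140, 193 and 176 at Acute 1 h and these overlap. At 24 h SUMF1 (1.10), DAB1 (0.70) and NFIA (0.54) rose most relative to other genes' introns, of which DAB1 (-0.26) and NFIA (-0.41) turned negative when scaled by exon reads, and HPSE2 (-1.41), SLC4A4 (-1.38) and BANK1 (-1.34) fell most.

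The 5 longest members had lower intron densities after acute 1 mM dopamine, on the scale of exon reads. RBFOX1 had a density of 62.8, 68.5 and 62.9 in PBS, 7.23, 15.9 and 20.7 at Acute 1 h and 12.5, 14.5 and 28.1 at Acute 24 h. CNTNAP2, whose exon level rose, went from 54.5, 61.9 and 60.9 to 20.2, 25.9 and 27.6 at 1 h, PTPRD from 97.4, 95.9 and 103 to 45.7, 74.1 and 64.5, DLG2, a postsynaptic scaffold, from 54.9, 62.1 and 57.5 to 14.1, 21.7 and 24.5, and CSMD1 from 43.5, 50.0 and 47.8 to 6.60, 13.2 and 15.4. In all 5 the Acute 1 h libraries were below PBS without overlap, on a scale that does not remove the floor. Relative to other genes' introns, RBFOX1 (-1.05), CSMD1 (-0.91) and DLG2 (-0.42) fell at 1 h, PTPRD rose (0.43) and CNTNAP2 did not pass (-0.14). Across the 267 members of 1 TPM or more, the intron to exon ratio was lower the higher the exon level, with medians of 2.55, 1.23, 0.676 and 0.357 over 4 classes of equal size from the lowest to the highest exon TPM, and the ratio has those exon reads in its denominator.

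**Figure D4:**
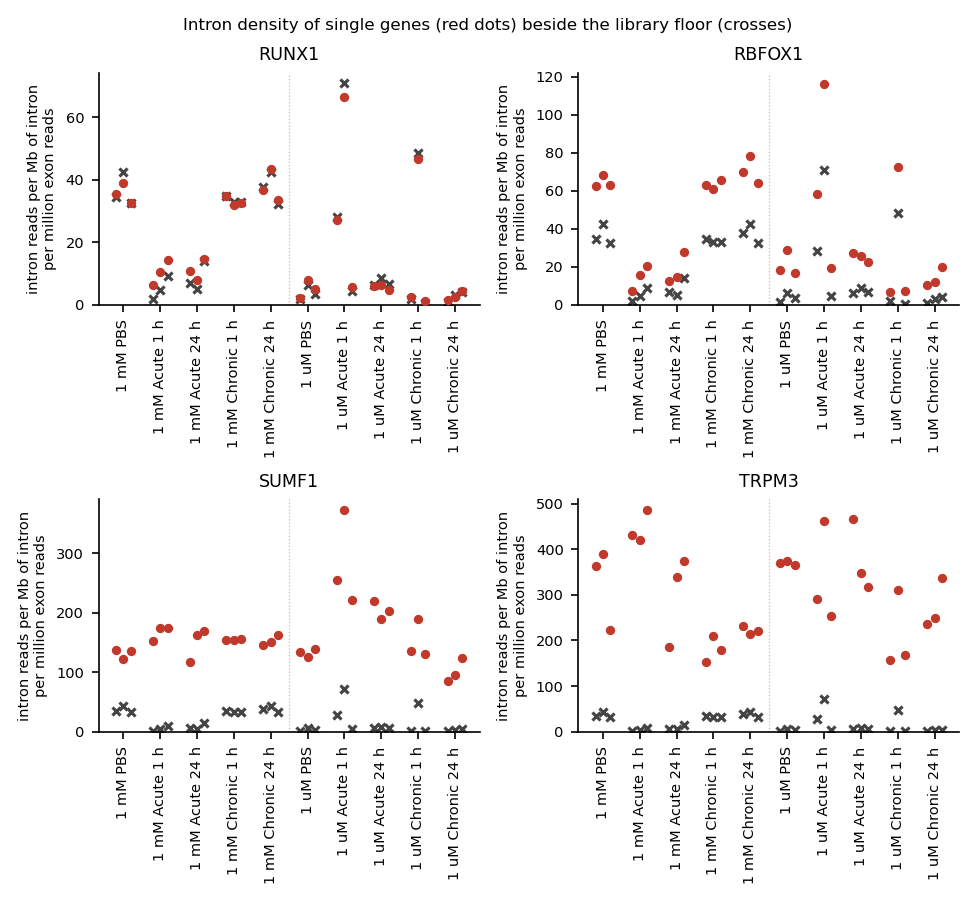
Intron reads per Mb of intron per 1000000 exon reads of RUNX1, RBFOX1, SUMF1 and TRPM3 (dots) beside the floor of the same library (crosses) in the 1 mM and 1 uM groups. RUNX1 follows the floor, RBFOX1 lies somewhat above it, and SUMF1 and TRPM3 lie well above it in every group.

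The intron to exon ratio was tested in 1 fit over both read types. At 1 mM Acute 1 h 12 of 284 members rose and 136 fell (52.1%, beside 29.4% of all genes) and at Acute 24 h 3 rose and 143 fell (51.4%, beside 19.3%). Above the floor, and relative to other genes, 81 rose and 25 fell at 1 h and 28 rose and 31 fell at 24 h. The median log2 fold changes of members above the floor were 0.36 and 0.06, beside 0.07 and 0.01 over all genes. NFIA (0.64), TRPM3 (0.63) and PTPRD (0.57) had the largest called rises at 1 h, relative to other genes, and RUNX1 (-2.80), the carbonic anhydrase-related gene CA10 (-2.37) and CCDC178 (-2.35) the largest falls. With the floor subtracted these were 3.00, -1.55 and -0.92, of which the last did not pass. The sign of RUNX1 turned, but its PBS intron reads lay close to the floor, so few were left there. Scaled by exon reads NFIA (-0.21) and TRPM3 (-0.23) turned negative. In PTPRD the deposited ratio was 0.679, 0.664 and 0.699 in PBS and 0.430, 0.655 and 0.616 at 1 h, lower in every library, and the sign came from the scaling, since scaled by exon reads it was -0.29.

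At 1 mM Chronic 1 h, TRPM3 (-0.87) and SLC4A10 (-0.54) fell by intron reads, 2 of 295 (0.678%) beside 2.54% of all genes, and 6 of 284 rose by the ratio (2.11%, beside 5.20%), led by FAM155A (0.66), the adhesion gene NCAM2 (0.59) and FGF14 (0.59). FGF14, an intracellular partner of sodium channels, had ratios of 0.950, 0.915 and 0.846 in PBS and 1.43, 1.30 and 1.27 at Chronic 1 h, without overlap, at similar floors. Above the floor 37 members rose and 1 fell by the ratio, with a median log2 fold change of 0.19 beside 0.02 over all genes. The share of all genes called above the floor is not given here. At Chronic 24 h none was called by intron reads (0.118% of all genes, 13 members higher and 1 lower at an unadjusted p under 0.05, none by DESeq2) or by the ratio (0.00% of all genes, 30 higher and none lower).

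At 1 uM Acute 1 h the summed ratio of the members was above PBS in 2 libraries and below it in replicate 3. By intron reads 10 of 295 rose and 4 fell (4.75%, beside 12.8% of all genes). By the ratio 43 of 276 rose and 1 fell (15.9%, beside 15.7% of all genes, of which 6.26% rose and 9.45% fell). Of those 44, 22 had groups that did not overlap, and overlap was not computed for other called genes. The member ratio was 0.803, 0.955 and 0.785 in 1 uM PBS and 1.22, 2.22 and 0.702 at Acute 1 h, high in the 2 libraries with a high floor and below PBS in replicate 3, whose floor was 4.55. Without the 3 libraries of high floor, 5 members rose and 31 fell by intron reads and 3 rose and 2 fell by the ratio, with replicate 3 as the only Acute 1 h library and the spread taken from the other groups.

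In the rest of the 1 uM experiment, 2 members rose and 2 fell by intron reads at Acute 24 h (1.36%, beside 2.84% of all genes), with SUMF1 (0.77) and the guidance receptor PLXNA4 (0.73) up. RORA, a nuclear receptor, was the 1 of 276 members (0.362%) that rose by the ratio at Acute 24 h, beside 2.00% of all genes. Its ratio was 2.53, 1.73 and 1.89 in PBS and 4.15, 3.68 and 2.99 (1.10 ± 0.21, edgeR adjusted p = 0.0114). At Chronic 1 h 1 rose (SUMF1, 0.55) and 8 fell by intron reads (3.05%, beside 8.55%), led by TENM4 (-0.84), and 3 rose by the ratio (1.09%, beside 10.4%). Without the high-floor libraries 3 members rose and 119 fell by intron reads there, with member ratios of 0.439 and 0.495 in replicates 1 and 3 (floors 1.95 and 0.558). For that refit the share of all genes called is not given here. At Chronic 24 h no member was called by intron reads (0.00% of all genes, none higher and 12 lower at an unadjusted p under 0.05, none by DESeq2) or by the ratio (0.00%, none higher and 3 lower).

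In the time course few members were called by intron reads. At 2 Day none rose and 4 of 295 fell (1.36%, beside 2.02% of all genes), led by the neuregulin NRG1 (-1.16), SYT1 (-0.61) and SYN3 (-0.58). At 3 Day 3 rose and 2 fell (1.69%, beside 2.07%), and ALDH1A2 (1.38 ± 0.27, edgeR adjusted p = 0.0185) and GLIS3 (0.72 ± 0.15, edgeR adjusted p = 0.0216) rose both here and by exon reads. At 4 Day none was called (0.885% of all genes, 18 higher and 7 lower at an unadjusted p under 0.05, 4 up and 3 down by DESeq2). At 5 Day SORCS1, a sorting receptor, was called (0.79, 0.339% of members, beside 0.821%), and 108 members were higher and 8 lower at an unadjusted p under 0.05. The share of all genes at that unadjusted threshold is not given here. The 5 Day libraries had floors of 24.2 and 1.33 and member ratios of 0.701 and 0.394, and without replicate 3, with replicate 2 alone assumed to vary like the other groups, the count was 168.

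By the ratio, 2 of 282 rose and 9 fell at 2 Day (3.90%, beside 2.27% of all genes), 3 rose and 5 fell at 3 Day (2.84%, beside 2.35%), none was called at 4 Day (1.80% of all genes, 5 higher and 29 lower at an unadjusted p under 0.05) and PALM2AKAP2 rose at 5 Day (0.355% of members, beside 0.787%). KCNJ6 rose by 1.00 at 2 Day, when its exon level fell, and SLIT3, a guidance ligand, fell by 0.75 on the log2 scale at 3 Day, when its exon level rose. SLIT3 had ratios of 0.241, 0.269 and 0.264 in the AA control and 0.216, 0.113 and 0.130 at 3 Day, without overlap. PTPRN2 had 0.689, 0.912 and 0.861 in the control and 0.556, 0.432 and 0.451 at 2 Day (-0.63 ± 0.12, edgeR adjusted p = 0.00647), and 0.581, 0.541 and 0.641 at 4 Day. Above the floor the falls were more frequent, with 50 members down and none up at 2 Day, 25 down and 3 up at 3 Day, 12 down and 1 up at 4 Day and 7 down and none up at 5 Day. For intron reads above the floor, 40 fell and 1 rose at 2 Day. These counts above the floor are given without the share of all genes called.

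The agonists changed 1 member by intron reads. RAD51B, a homologous recombination gene, rose with SKF82958 from 27.2, 24.0 and 35.8 to 44.1, 64.1 and 49.5 intron reads per Mb of intron per 1000000 exon reads (0.60 ± 0.11, edgeR adjusted p = 0.0381), 0.339% of members beside 0.246% of all genes. The call was lost when scaled by exon reads and without SKF82958 replicate 1 or 2 or any one Water library (edgeR adjusted p = 0.0547 to 0.244). With quinpirole none was called (0.0615% of all genes, 45 higher and 2 lower at an unadjusted p under 0.05, none by DESeq2). By the ratio none was called with SKF82958 (0.233% of all genes, 16 higher and 8 lower) or quinpirole (0.0211%, 44 higher and 2 lower). The percentages are for the adjusted p, and the share of all genes at the unadjusted threshold is not given here.

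Members called by the ratio in the most comparisons were SYT1, ESRRG, RABGAP1L and SUMF1 (4 each), followed by 21 members with 3 each, of which PTPRD had the smallest mean adjusted p. RABGAP1L, a regulator of Rab GTPases, had ratios of 0.871, 1.17 and 1.06 in 1 mM PBS, 0.236, 0.354 and 0.354 at 1 mM Acute 1 h, 0.671, 0.655 and 0.644 in 1 uM PBS and 1.53, 2.05 and 0.849 at 1 uM Acute 1 h, so it was lower at one dose and higher at the other, in all 3 libraries each. The floors of these libraries were 32.5 to 42.4 in 1 mM PBS and 1.88 to 9.10 at 1 mM Acute 1 h. They were 1.74 to 6.40 in 1 uM PBS and 28.2, 70.9 and 4.55 at 1 uM Acute 1 h, and their part in the RABGAP1L ratios was not tested. SYT1 had the lowest ratios of these members, at 0.140, 0.146 and 0.127 in 1 mM PBS and 0.181, 0.176 and 0.191 at Chronic 1 h. The orphan nuclear receptor ESRRG had 0.281, 0.392 and 0.792 in the AA control and 1.08, 0.569 and 0.800 at 2 Day, and these overlap.

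**Figure D5:**
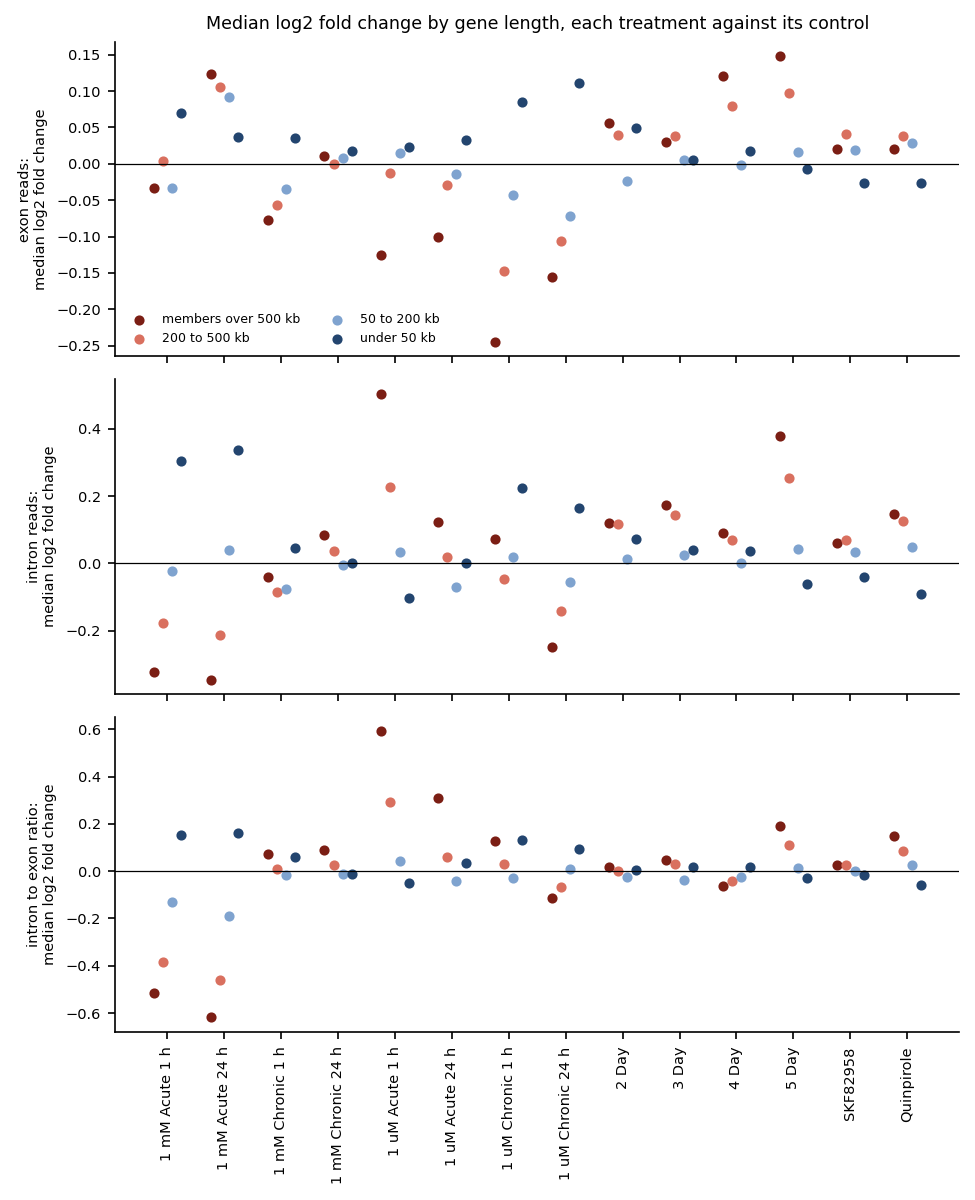
Median log2 fold change (vertical axis) by gene length class for exon reads, intron reads and the intron to exon ratio in each comparison. For intron reads at 1 mM Acute 1 h the median goes from 0.30 under 50 kb to -0.32 in the very long genes, whereas that of exon reads stays within 0.07 of 0.

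The response 1 h after an acute dose differed between 1 mM and 1 uM for 15 of 286 members by exon reads (12 higher and 3 lower at 1 mM, 5.24%, beside 2.01% of all genes) and for 127 of 295 by intron reads (22 higher and 105 lower, 43.1%, beside 30.5%). Dose and experiment cannot be told apart, since each dose had its own PBS group. GRM8 went from 35.6, 36.0 and 32.5 TPM to 57.3, 54.2 and 59.4 TPM at 1 mM and from 19.4, 16.8 and 18.5 TPM to 5.39, 3.80 and 6.97 TPM at 1 uM (difference 2.57). CPNE4, a copine, went from 40.7, 37.5 and 37.9 TPM to 54.4, 62.0 and 62.6 TPM at 1 mM and from 13.9, 17.8 and 14.6 TPM to 2.67, 5.76 and 5.16 TPM at 1 uM (difference 2.45). MGAT4C went the other way, down at 1 mM and up at 1 uM (difference -2.91). In all 3 genes the groups did not overlap at either dose.

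Of 46 listed genes for transcription elongation, topoisomerases and long-gene RNA-binding proteins, none a member, 4 rose (HEXIM1, NELFE, SUPT16H and SUPT4H1) and 2 fell (LEO1 and PCF11) at 1 mM Acute 1 h, and 5 rose (CCNK, CTR9, HEXIM1, SCAF8 and TOP1) at Acute 24 h. This was no larger a share than over all genes, of which 16.0% were called at 1 h and 15.5% at 24 h. HEXIM1, which holds the elongation kinase P-TEFb inactive, rose in 7 comparisons, by 0.75 ± 0.14 at 1 mM Acute 1 h (edgeR adjusted p = 0.00458), 0.61 at Acute 24 h and 0.89 at Chronic 1 h, by 0.65 at 1 uM Chronic 1 h and by 0.32, 0.47 and 0.41 at 2, 4 and 5 Day. PCF11, a termination factor, fell at 1 mM Acute 1 h (-0.61 ± 0.15, edgeR adjusted p = 0.0141) and at 2, 3 and 4 Day (-0.50, -0.45 and -0.41), and rose at 1 uM Acute 1 h (0.64, edgeR adjusted p = 0.0417). TOP1, the topoisomerase that relieves supercoils ahead of the polymerase, passed only at 1 mM Acute 24 h among the 1 mM groups.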

How the data were processed

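Per-gene tables of total exon reads, total intron reads and TPM were analysed for 52 libraries of total RNA. The authors made them with CLC Genomics Workbench on GRCh38 (hg38) with Ensembl annotation, and the deposited values are whole read counts and TPM, exon reads scaled for exon length and library size. Libraries were made at 2 providers and which library at which is not given in the sources used here, nor is the strand setting, so overlapping genes may share reads. Members and gene lists were chosen with earlier results of these data known. Counts were fitted per experiment, exon and intron reads separately, with edgeR 4.0.16 in R 4.3.3 (filterByExpr with a minimum count of 10 and total of 15, TMM, glmQLFit, 1 coefficient per group), and p-values were adjusted over all genes tested (Benjamini-Hochberg, threshold 0.05). The ratio was an interaction of read type and group over both read types, and the dose difference an interaction of dose and treatment. On data simulated for 1 mM Acute 1 h over 17520 genes, the exon test recovered 55.9% of genes changed by 1 and 86.9% of those changed by 2 on the log2 scale with 8 false calls, the intron test (23145 genes) 41.8% and 79.3%, and the ratio test (15857 genes) 30.5% and 77.2%. The simulated libraries held no difference of the intron floor between groups. How the intron and ratio tests behave with such a difference was therefore not tested. The filter passed 275 of 295 members by exon reads in every experiment and 295 by intron reads. The text names up to 4 members of each role list by TPM, up to 3 in each direction per comparison and read type by fold change among called members whose groups did not overlap, the 5 longest, and the 5 called most often by the ratio. For the dose difference, overlap was checked between the 1 mM groups only. Genes outside this rule (ADGRL3, ANKS1B, CACNA2D3, CLSTN2, DOCK1, GALNT17, GRIK2, KIF26B, NLGN1, PPFIA2, PRKCE, PTPRK, RASGEF1B, SHANK2 and ZFHX3 among members, and the single genes of the elongation list) were named after their values were seen. Alternatives were DESeq2 1.42.0, its size factors, no filter, only the groups compared, a replicate block, scaling by exon reads, each library left out, and, chosen after seeing the data, the floor subtraction and leaving out the libraries of high floor. The library of quinpirole replicate 1 was left out by the rule that chose the genes, and 5 Day replicate 1 was not analysed here. Gene reads per library ran from 7548913 to 33715972. The other columns of the tables were not used, and some genes that the rule or the lists hold are not reported here.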

Additional observations from a re-analysis of the deposited data

Results flagged for a closer look

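These results are listed here because the response 1 h after an acute dose differed between the 1 mM and the 1 uM experiment by a test of the difference itself (an interaction term in edgeR's quasi-likelihood fit, adjusted p under 0.05). By intron reads this held for 127 of 295 very long genes, 22 higher and 105 lower at 1 mM, and by exon reads for 15 of 286, 12 higher and 3 lower. Members are named among those called whose 1 mM Acute 1 h and 1 mM PBS libraries did not overlap, and overlap at 1 uM was not checked. Among these, the largest differences of intron reads (log2) were in TRPM3 (2.17), NFIA (1.47) and NKAIN3 (1.43) and in IQCM (-4.62), ZNF804B (-4.59) and CCDC178 (-4.34). The floor of intron reads, per Mb of intron and 1000000 exon reads, was 32.5 to 42.4 in 1 mM PBS and 1.88 to 9.10 at 1 mM Acute 1 h, and at 1 uM it was 1.74 to 6.40 in PBS and 4.55 to 70.9 at Acute 1 h. With the floor subtracted, 45 members were higher and 11 lower at 1 mM, relative to the remaining intron reads of other genes. Scaled by exon reads none was higher and 259 were lower, and NFIA (-0.06) and NKAIN3 (-0.06) turned negative. By exon reads they were GRM8 (2.57), CPNE4 (2.45), ALK (1.83), MGAT4C (-2.91), DLG2 (-1.07) and GSE1 (-0.72). Each dose was tested in its own experiment, so dose and experiment cannot be told apart, and the part of the floor was not tested further.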

How the results depend on the processing

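Of the counts of called members recomputed under the alternatives, 287 stayed within 1.5 times the reported count and 260 did not, and the cause was not tested. Counts under the alternatives are given without the share of all genes called in the same fit. Of the fold changes of named members, 1147 kept direction and call, 452 lost the call and 12 changed sign. Scaled by exon reads, the intron reads of DAB1 (-0.26) and NFIA (-0.41) at 1 mM Acute 24 h, the dose difference of NFIA (-0.06) and NKAIN3 (-0.06), and the ratios of NFIA (-0.21), TRPM3 (-0.23) and PTPRD (-0.29) at 1 mM Acute 1 h and of PTPRD (-0.30) at Acute 24 h turned negative. With the floor subtracted, the ratios of RUNX1 (3.00 at 1 mM Acute 1 h, 1.65 at Acute 24 h) and UNC13C (6.27 at 1 mM Acute 24 h) turned positive and that of CPNE4 (-2.64 at 1 uM Acute 1 h) negative. No subtracted count was allowed to turn negative, and a member near the floor, like RUNX1 in 1 mM PBS, keeps few reads. The sizes of these values are therefore uncertain. All groups came from 1 cell line with 2 or 3 libraries each, and members of low exon counts limit the exon test and the ratio.

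DESeq2's Wald test called, by exon reads, 17 at 1 mM Chronic 1 h, 4 at 1 mM Chronic 24 h, 42 at 1 uM Acute 1 h, 38 at 1 uM Acute 24 h, 13 at 1 uM Chronic 1 h, 28 at 2 Day and 1 at SKF82958. DESeq2's Wald test called, by intron reads, 8 at 1 mM Chronic 1 h, 45 at 1 uM Acute 1 h, 19 at 1 uM Chronic 1 h, 24 at 2 Day, 19 at 3 Day, 7 at 4 Day and 27 at 5 Day. edgeR with DESeq2's size factors in place of TMM called, by intron reads, 4 at 1 mM Chronic 1 h, 5 at 1 uM Chronic 1 h and 13 at 2 Day. edgeR with DESeq2's size factors in place of TMM called, by the ratio, 2 at 1 uM Acute 24 h. Without the filter on low counts the test called, by exon reads, 9 at 1 uM Acute 24 h, 3 at 1 uM Chronic 1 h, 38 at 2 Day, 23 at 5 Day and 2 at SKF82958. Without the filter on low counts the test called, by intron reads, 4 at 1 mM Chronic 1 h, 45 at 1 uM Acute 1 h, 75 at 2 Day, 71 at 3 Day, 6 at 4 Day, 107 at 5 Day, 8 at SKF82958 and 15 at Quinpirole. Without the filter on low counts the test called, by the ratio, 11 at 1 mM Chronic 1 h, 1 at 1 mM Chronic 24 h, 78 at 1 uM Acute 1 h, 13 at 1 uM Acute 24 h, 7 at 1 uM Chronic 1 h, 23 at 2 Day, 25 at 3 Day, 2 at 4 Day, 13 at 5 Day and 2 at Quinpirole. Fitting only the 2 groups compared, in place of all groups of an experiment, called, by exon reads, 139 at 1 mM Acute 1 h, 0 at 1 mM Acute 24 h, 63 at 1 mM Chronic 1 h, 1 at 1 uM Acute 1 h, 9 at 1 uM Acute 24 h, 0 at 1 uM Chronic 1 h, 29 at 2 Day, 53 at 4 Day, 0 at 5 Day and 1 at SKF82958. Fitting only the 2 groups compared, in place of all groups of an experiment, called, by intron reads, 37 at 1 mM Chronic 1 h, 9 at 1 uM Acute 1 h, 17 at 1 uM Acute 24 h, 0 at 1 uM Chronic 1 h, 105 at 2 Day, 24 at 3 Day, 31 at 4 Day and 0 at 5 Day. Fitting only the 2 groups compared, in place of all groups of an experiment, called, by the ratio, 48 at 1 mM Acute 24 h, 65 at 1 mM Chronic 1 h, 7 at 1 uM Acute 1 h, 5 at 1 uM Acute 24 h, 0 at 1 uM Chronic 1 h, 62 at 2 Day, 27 at 3 Day, 22 at 4 Day and 0 at 5 Day. Scaling intron reads by exon reads called, by intron reads, 284 at 1 mM Acute 1 h, 290 at 1 mM Acute 24 h, 0 at 1 mM Chronic 1 h, 2 at 1 uM Acute 1 h, 0 at 1 uM Acute 24 h, 5 at 1 uM Chronic 1 h, 1 at 2 Day, 0 at 3 Day, 0 at 5 Day, 0 at SKF82958 and 259 for the dose difference. Scaling intron reads by exon reads called, by the ratio, 265 at 1 mM Acute 1 h, 274 at 1 mM Acute 24 h, 0 at 1 mM Chronic 1 h, 9 at 1 uM Acute 1 h, 0 at 1 uM Acute 24 h, 5 at 1 uM Chronic 1 h, 2 at 3 Day and 0 at 5 Day. With the floor subtracted, which was added once the data had been seen, the test called, by intron reads, 66 at 1 mM Acute 24 h, 19 at 1 mM Chronic 1 h, 27 at 1 uM Acute 1 h, 7 at 1 uM Acute 24 h, 61 at 1 uM Chronic 1 h, 41 at 2 Day, 25 at 3 Day, 3 at 4 Day, 4 at 5 Day and 56 for the dose difference. With the floor subtracted, which was added once the data had been seen, the test called, by the ratio, 59 at 1 mM Acute 24 h, 38 at 1 mM Chronic 1 h, 23 at 1 uM Acute 1 h, 4 at 1 uM Acute 24 h, 18 at 1 uM Chronic 1 h, 50 at 2 Day, 28 at 3 Day, 13 at 4 Day and 7 at 5 Day. Without the 3 1 uM libraries of high floor, also added later, the test called, by exon reads, 25 at 1 uM Chronic 1 h. Without the 3 1 uM libraries of high floor, also added later, the test called, by intron reads, 36 at 1 uM Acute 1 h and 122 at 1 uM Chronic 1 h. Without the 3 1 uM libraries of high floor, also added later, the test called, by the ratio, 5 at 1 uM Acute 1 h and 18 at 1 uM Chronic 1 h.

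Replicate numbers were not used as pairs in the main fits. The correlation of the residuals of same-numbered libraries ran from -0.62 to 0.71 over pairs. For intron reads its mean was 0.17 in the agonist experiment, beside -0.08 for other-numbered libraries, and 0.09 beside -0.04 at 1 uM. It was 0.002 beside -0.001 at 1 mM and -0.05 beside 0.02 in the time course. For exon reads the same-number means ran from -0.01 to 0.02. Whether the numbers mark pairs is not settled by these values. A fit with the replicate block called, by exon reads, 3 at 1 uM Chronic 1 h and 5 at 5 Day. A fit with the replicate block called, by intron reads, 3 at 3 Day and 0 at 5 Day. With the replicate block set within each read type the fit called, by the ratio, 5 at 3 Day and 0 at 5 Day. The block moved no other count of members by over 1.5 times.

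Each library was left out in turn, and where this left a group with 1 library, that library was assumed to vary like the other groups. By exon reads the count at 1 mM Acute 1 h ran from 28 to 128, with 28 to 39 without any one PBS or Acute 1 h library and 128 without Acute 24 h replicate 1. At 1 mM Acute 24 h it ran from 22 to 107, with 22 to 34 without any one PBS library and 107 without Acute 24 h replicate 1. The range was 0 to 47 at 1 mM Chronic 1 h and 0 to 26 at 1 mM Chronic 24 h, and the same library gave both upper ends. It was 18 to 32 at 1 uM Acute 1 h (32 without its replicate 2), 0 to 9 at 1 uM Acute 24 h (9 without PBS replicate 1, 5 without PBS replicate 2 or 3 and 0 to 2 without an Acute 24 h library) and 1 to 5 at 1 uM Chronic 1 h. In the time course the ranges were 4 to 15 at 2 Day (4 without its replicate 2 and 5 to 7 without an AA control library), 12 to 33 at 3 Day (12 without its replicate 2 or AA control replicate 1 or 2, 18 without its replicate 3), 7 to 17 at 4 Day (every library of 4 Day and AA control lowered the count) and 0 to 19 at 5 Day (19 without its replicate 3, 4 without its replicate 2 and 0 to 3 without an AA control library). The agonist ranges were 0 to 1 for SKF82958, and the dose difference gave 7 to 18, with 7 to 9 without any one 1 mM PBS or Acute 1 h library. By intron reads the counts were 143 to 191 at 1 mM Acute 1 h, 115 to 171 at 1 mM Acute 24 h, 0 to 9 at 1 mM Chronic 1 h, 0 to 4 at 1 uM Acute 24 h, 0 to 2 at 2 Day and 0 to 1 with either agonist. At 1 uM Acute 1 h they ran from 5 to 48, with 48 without its replicate 3, 5 without its replicate 1 and 5 to 7 without a PBS library. At 1 uM Chronic 1 h they ran from 1 to 23, with 23 without its replicate 2, 1 without its replicate 1 or PBS replicate 1, 3 without PBS replicate 3 and 5 without its replicate 3. At 3 Day they ran from 0 to 12 (12 without its replicate 1, 0 to 2 without any other library of the pair of groups), at 5 Day from 0 to 168 (168 without its replicate 3, 0 without an AA control library) and for the dose difference from 57 to 161 (57 without 1 uM Acute 1 h replicate 2, 71 without 1 mM Acute 1 h replicate 1 and 80 without 1 uM PBS replicate 1). By the ratio they ran from 84 to 173 at 1 mM Acute 1 h (84 without its replicate 1), from 80 to 174 at 1 mM Acute 24 h (80 without PBS replicate 2), from 0 to 23 at 1 mM Chronic 1 h (23 without Acute 24 h replicate 1, 0 to 3 without a PBS or Chronic 1 h library) and from 0 to 1 at 1 mM Chronic 24 h. They ran from 12 to 90 at 1 uM Acute 1 h (90 without its replicate 3, 12 and 15 without its replicates 2 and 1, 22 and 23 without PBS replicates 1 and 3), from 0 to 2 at 1 uM Acute 24 h and from 2 to 4 at 1 uM Chronic 1 h. They ran from 1 to 8 at 2 Day (1 without its replicate 2 or AA control replicate 2 or 3, 6 without its replicate 3), 1 to 8 at 3 Day, 0 to 1 at 4 Day, 0 to 108 at 5 Day (108 without its replicate 3, 2 without its replicate 2, 0 without an AA control library) and 0 to 4 with quinpirole.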
